A study of Homo sapiens with 6 samples.

Results

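Replication-dependent histone genes were followed in polyadenylated RNA of OCI-AML2, an established line of human acute myeloid leukaemia cells. The members were all rows of the deposited count table whose symbol begins with HIST1H, HIST2H, HIST3H or HIST4H. Of 89 such rows, 14 were set aside because their symbol ends as that of a pseudogene, and 3 of those 14 had a count in any library. This left 75 members of 55765 genes in the table, namely 6 of class H1, 17 of H2A, 23 of H2B, 14 of H3 and 15 of H4. Of these, 5 carry a pseudogene type in GENCODE release 29 (HIST2H2BA, HIST2H2BB, HIST2H2BC, HIST2H2BD and HIST3H2BA) and were kept, since the choice went by symbol. The cells had been exposed to 100 nM MRT199665, an inhibitor that the labels describe as acting on the MARK kinases, or to vehicle alone, and RNA was taken after 48 h. Each group held 3 libraries made with a kit that reads messenger RNAs from their 3′ ends. The labels describe the culture as one of single-cell clones, without saying how many clones there were or whether replicates were cultured apart. The p-values thus reflect variation among these 6 libraries, part or all of which may be technical.

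Histones H2A, H2B, H3 and H4 form the core around which DNA is wound, and H1 binds the linker DNA between cores. Their replication-dependent genes lie in clusters, are transcribed mainly in S phase under the coactivator NPAT, and give mRNAs that end without a poly(A) tail behind a conserved stem-loop. That stem-loop is bound by SLBP, and the precursor RNA is cut behind it with the help of the U7 small nuclear ribonucleoprotein. Some of these genes are also known to give longer, polyadenylated transcripts from a signal past the stem-loop, and such transcripts become more frequent in cells that leave the cycle or differentiate. A library primed on poly(A) therefore reads only the polyadenylated part of these genes' RNA, together with any priming at internal runs of A.

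The stem-loop is shown first because it separates the main form of these mRNAs from the form that the assay reads. The motif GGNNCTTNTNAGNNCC (N is any base) was searched on the sense strand. It was found in a GENCODE release 29 transcript of 35 of the 75 members. Among all protein-coding transcripts, those of the members included, 221 of 83129 (0.266%) held it. The former counts genes with any matching transcript and the latter single transcripts, so these are unlike rates. In the members the motif occurred in 6 forms. Those of 4 example members are in capitals with 5 flanking bases on each side, written as DNA from 5′ to 3′. HIST1H2AC carried the commonest form, found in 18 members of H2A, H2B and H3, and was the sole member called by the test described later whose transcript models hold a stem-loop.
HIST1H2AC: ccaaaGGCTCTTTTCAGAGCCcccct
HIST2H2BE: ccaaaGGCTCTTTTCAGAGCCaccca
HIST1H2AG: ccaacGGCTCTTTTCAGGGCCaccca
HIST1H4H: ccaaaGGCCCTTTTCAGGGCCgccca
HIST2H2BE has the same 16 letters as HIST1H2AC, the form in HIST1H2AG occurred in 3 members, and the form in HIST1H4H occurred in 5 members, all of class H4. A transcript model reached more than 100 bases past the stem-loop in 25 members, and in 20 of them the model held a polyadenylation signal after it. The models ran 1128 bases past the stem-loop in HIST1H2AC, 1729 bases in HIST2H2BE, 1761 bases in HIST1H2AG and 1655 bases in HIST1H4H. For the other 40 members no model held the motif, which says only that these letters are not in those models.

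Total counts per library ranged from 5871097 to 14308650 in the MRT199665 group and from 9517907 to 11994657 in the vehicle group. Levels are in CPM, library counts scaled to a common total. Where a gene had no count, the level could be up to that of 3 counts, 0.213 to 0.507 CPM by library, by counting error alone. The leading axis of a principal component analysis (46.75% of the variance) ran from MRT199665 replicate 2 at one end to vehicle replicate 2 at the other, with scores of 48.4 and -36.8. The other MRT199665 libraries lay at -10.4 and 6.23 and the other vehicle libraries at 10.5 and -18.0, so the groups overlapped on this axis. On the next axis (26.25% of the variance) the groups did not overlap. MRT199665 replicates 1, 2 and 3 lay there at -26.43, -5.945 and -16.34, and vehicle replicates 1, 2 and 3 at 35.33, 0.9544 and 12.43. Myeloid markers were present, with 8 of 11 tested and a summed level of 259 to 281 CPM with MRT199665 against 177 to 197 CPM with vehicle. CSF1R, the macrophage colony-stimulating factor receptor, was called higher, and CD34, CD68 and CEBPA were at 0 in all libraries. Among markers of other cell types, CD2, MS4A1, HBB, PF4 and KRT18 were at 0 in all libraries. What part these shifts in markers have in the histone values was not tested, and in bulk RNA fewer cells of a type cannot be told apart from less RNA per cell.

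Histone counts were concentrated in very few genes. All 75 members together took 0.481%, 0.369% and 0.356% of the counts of MRT199665 replicates 1, 2 and 3, against 0.500%, 0.723% and 0.605% in vehicle replicates 1, 2 and 3. The MRT199665 libraries were all below the vehicle libraries. No count was found for 15 members, and 32 had too few counts for the test, at most 13 in any library. That left 28 tested members, 4 of H1, 8 of H2A, 9 of H2B, 2 of H3 and 5 of H4. The 4 testis members, HIST1H1T, HIST1H2AA, HIST1H2BA and HIST3H3, were at 0 in all 6 libraries, as were HIST1H2AD, HIST1H2BH, HIST1H2BI, HIST1H3E, HIST1H3G and HIST1H4G of the large cluster on chromosome 6. By chromosome, 55 members lie on 6, 19 on 1 and 1 on 12.

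With MRT199665, transcripts of HIST1H2BK, HIST1H2AC and HIST1H3D rose and those of the linker histone genes HIST1H1B and HIST1H1E fell. These 5 of 28 tested members (17.9%) were called at a Benjamini-Hochberg adjusted p under 0.05 in the edgeR quasi-likelihood test over all 13053 tested genes, of which 1.25% were called. The 3 higher members compare with 0.850% of all tested genes and the 2 lower members with 0.398%. Groups did not overlap for 9 members, which is 32.1% of the tested members against 22.2% of all tested genes. Of these, 4 were higher (11.4% of all tested genes) and 5 were lower (10.8% of all tested genes). The histone genes did not move in a common direction. Log2 fold changes of MRT199665 over vehicle were above 0 for 12 members and below 0 for 16, and their median was -0.07, against 0.01 over all tested genes. An unadjusted p under 0.05 was found for 10 members, against 14.7% of all tested genes, with 4 higher (7.64% of all) and 6 lower (7.11% of all). DESeq2 called 7 members, 3 higher and 4 lower, where it called 2.87% of all genes given an adjusted p, and limma-voom called 4 (1.20% of all). Without a low-count filter edgeR called 9 members, adding HIST1H1D, HIST1H2AJ, HIST1H4C and HIST2H2AC to the 5, where 2.28% of genes were called. These tested members had passed a filter on low counts and do not stand for all 75.

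**Figure D1:**
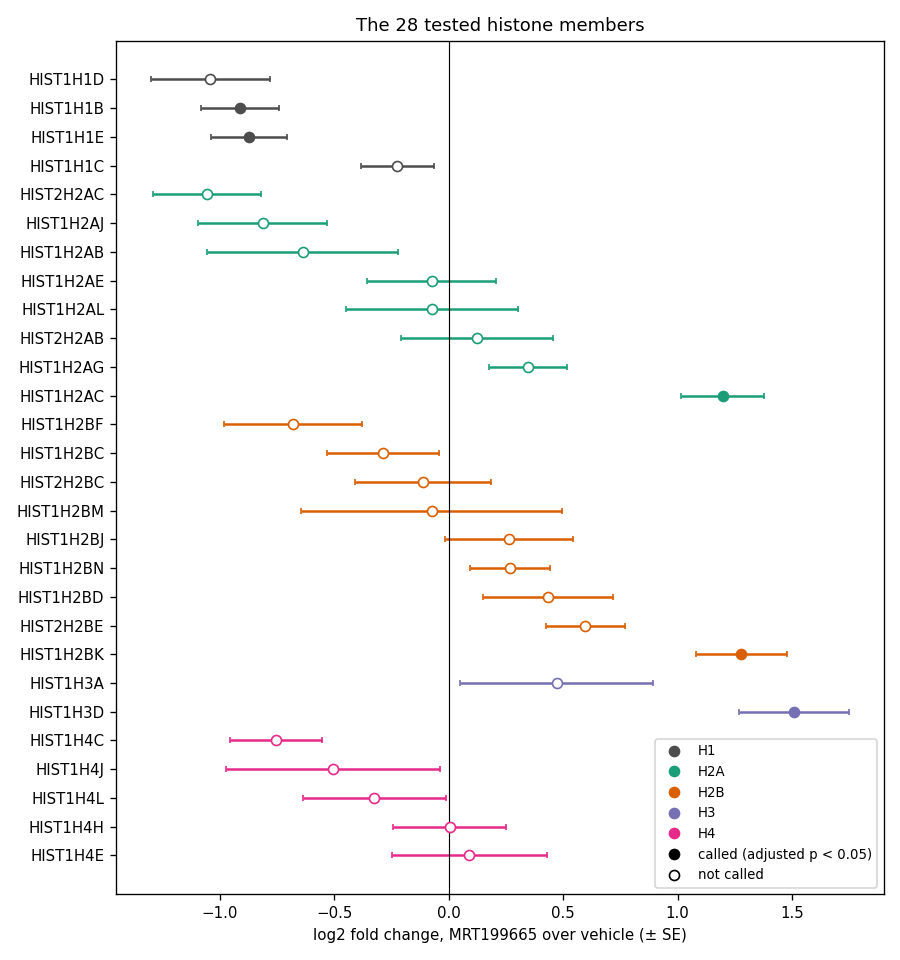
Log2 fold change (MRT199665 over vehicle, ± SE) of each of the 28 tested members, by class, with called members as filled circles. The H1 members all lie left of 0, both H3 members lie right of 0, and H2A, H2B and H4 lie on both sides.

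HIST1H4C, which encodes histone H4, gave most of the histone counts in every library. Its level was 4075, 3023 and 2885 CPM in MRT199665 replicates 1, 2 and 3, against 4551, 6911 and 5374 CPM in vehicle replicates 1, 2 and 3. Every MRT199665 library lay below every vehicle library, while the spread within each group was wide. The log2 fold change was -0.75 ± 0.20 (SE), a level 1.69-fold lower, and did not pass the edgeR test (adjusted p = 0.131). DESeq2 called it (adjusted p = 0.0102), and so did edgeR without a low-count filter (adjusted p = 0.000363), while limma-voom did not (adjusted p = 0.112). HIST1H4C took 83.5%, 82.6% and 80.0% of all histone counts in MRT199665 replicates 1, 2 and 3, against 91.5%, 92.9% and 91.7% in vehicle replicates 1, 2 and 3. The widest Wilson 95% interval among these shares, 82.1% to 83.1%, was that of MRT199665 replicate 2, and the groups did not overlap. Shares are of 3′-end counts, which were not divided by length. HIST1H4C is not among the members listed below as known for polyadenylated transcripts. Its 1 GENCODE release 29 model, of 435 bases, held no stem-loop motif and no run of A longer than 7. Which form of its RNA gave these counts was not tested.

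The other H4 members held few counts. Among the tested ones, HIST1H4H stood at 6.08 ± 1.85 CPM in MRT199665 libraries and 6.23 ± 1.08 CPM in vehicle libraries (SD, n = 3 each), with a log2 fold change of 0.00 ± 0.25 (SE). HIST1H4E had a log2 fold change of 0.09 ± 0.34 and HIST1H4J of -0.51 ± 0.47 (SE), and neither passed the test. All of them overlapped between the groups. HIST1H4J has the same coding sequence as HIST1H4K, which held 2 counts in all, so the division of coding-sequence reads between them is uncertain. HIST1H4B, left untested, had 16 counts over the MRT199665 libraries and 27 over the vehicle libraries, not scaled for depth. The summed H4 level was lower in every MRT199665 library than in any vehicle library, with a log2 ratio of means of -0.75, and without HIST1H4C that ratio was -0.23 with overlapping groups.

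HIST1H2BK, now H2BC12 in RefSeq, encodes an H2B protein and is known to give a polyadenylated transcript. It stood at 537, 357 and 504 CPM in MRT199665 replicates 1, 2 and 3, against 153, 230 and 194 CPM in vehicle replicates 1, 2 and 3. The lowest MRT199665 library was above the highest vehicle library. HIST1H2BK rose 2.42-fold, with a log2 fold change of 1.28 ± 0.20 (SE) and an adjusted p of 0.0215 in the edgeR test. Adjusted p was above the threshold when MRT199665 replicate 1 (0.0844), MRT199665 replicate 3 (0.136) or vehicle replicate 3 (0.131) was left out. Its interval in RefSeq overlaps that of HIST1H4I, which held 19 counts over all libraries.

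HIST1H2BK made up 91.8%, 87.5% and 92.4% of H2B counts in MRT199665 replicates 1, 2 and 3, against 78.6%, 84.5% and 83.9% in vehicle replicates 1, 2 and 3. The remaining H2B members together summed to 48.2, 51.0 and 41.5 CPM with MRT199665, against 41.5, 42.2 and 37.2 CPM with vehicle. With HIST1H2BK the log2 ratio of the summed H2B level was 1.14, and without it 0.22 with overlapping groups, so the class sum rested on 1 gene. HIST2H2BE, another H2B gene with a long transcript model, stood at 9.74, 9.13 and 10.4 CPM in MRT199665 replicates 1, 2 and 3, against 7.38, 6.61 and 5.39 CPM in vehicle replicates 1, 2 and 3. Its groups did not overlap, and its log2 fold change of 0.60 ± 0.17 (SE) did not pass the edgeR test (adjusted p = 0.157). HIST1H2BD and HIST1H2BN had log2 fold changes of 0.44 ± 0.28 and 0.27 ± 0.18 (SE) with overlapping groups. The RefSeq interval of HIST1H2BD overlaps an antisense gene and a pseudogene.

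HIST1H2AC, now H2AC6, encodes an H2A protein. It stood at 20.2, 19.9 and 15.6 CPM in MRT199665 replicates 1, 2 and 3, against 7.13, 9.70 and 7.33 CPM in vehicle replicates 1, 2 and 3. The groups were apart by more than the spread within either of them. HIST1H2AC rose 2.29-fold, with a log2 fold change of 1.20 ± 0.18 (SE) and an adjusted p of 0.0190 in the edgeR test. Leaving out MRT199665 replicate 1 (adjusted p = 0.0789), MRT199665 replicate 2 (0.0541) or vehicle replicate 3 (0.130) ended the call.

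The other H2A genes lay on both sides of 0 and none of them was called by the edgeR test over all libraries. HIST2H2AC stood at 4.53, 4.06 and 5.17 CPM in MRT199665 replicates 1, 2 and 3, against 6.80, 11.8 and 10.4 CPM in vehicle replicates 1, 2 and 3. All 3 MRT199665 libraries were below the lowest vehicle library. Its log2 fold change of -1.06 ± 0.24 (SE) did not pass the edgeR test (adjusted p = 0.0871), while DESeq2 (adjusted p = 0.0191) and edgeR without vehicle replicate 1 (adjusted p = 0.0236) called it. HIST1H2AJ stood at 8.69 ± 3.15 CPM in MRT199665 libraries and 15.5 ± 4.40 CPM in vehicle libraries (SD, n = 3 each), with a log2 fold change of -0.81 ± 0.28 (SE, edgeR adjusted p = 0.226) and overlapping groups. HIST1H2AG had a log2 fold change of 0.35 ± 0.17 (SE, edgeR adjusted p = 0.397).

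The summed H2A level was nearly the same in both groups, at 56.2 ± 7.63 CPM in MRT199665 libraries and 55.3 ± 11.8 CPM in vehicle libraries (SD, n = 3 each), a log2 ratio of 0.02. Its make-up differed. HIST1H2AC took 31.7%, 35.3% and 32.2% of H2A counts in MRT199665 replicates 1, 2 and 3, against 15.8%, 14.2% and 13.9% in vehicle replicates 1, 2 and 3. HIST1H2AJ took 15.3 ± 3.85% with MRT199665 and 27.8 ± 2.05% with vehicle, and HIST2H2AC 8.33 ± 2.04% with MRT199665 and 17.4 ± 2.34% with vehicle (SD, n = 3 each). Neither of these shares overlapped between the groups. Per library, 1.64, 3.03 and 2.18 counts of HIST1H2AC were found per count of HIST1H2AJ with MRT199665, against 0.582, 0.473 and 0.533 with vehicle. This ratio does not depend on library scaling. The pair was picked by hand from genes whose fold changes have opposite signs, so the ratio restates that difference and is no separate support.

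**Figure D2:**
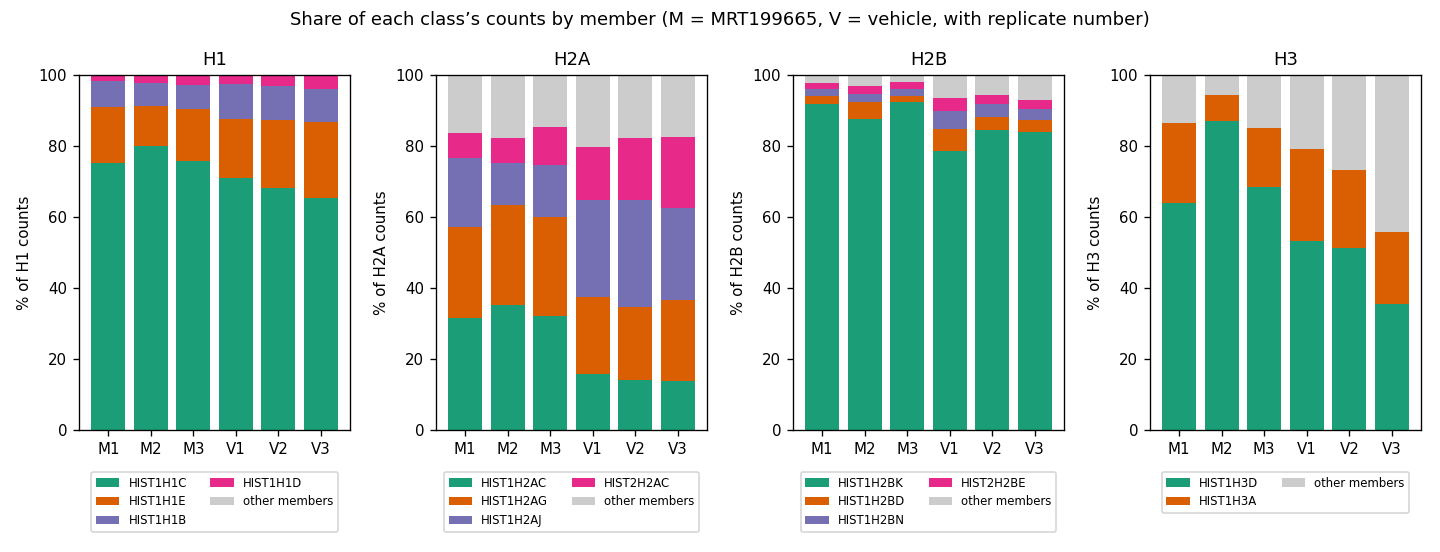
Stacked bars give each member's share (%) of its class's counts in MRT199665 libraries M1 to M3 and vehicle libraries V1 to V3, with the leading members named and all others in grey. HIST1H2AC covers 31.7% to 35.3% of the H2A bar with MRT199665 and 13.9% to 15.8% with vehicle.

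HIST1H3D, now H3C4, encodes histone H3. It stood at 9.21, 10.1 and 7.73 CPM in MRT199665 replicates 1, 2 and 3, against 3.44, 3.78 and 2.14 CPM in vehicle replicates 1, 2 and 3. The lowest MRT199665 library held more than the highest vehicle library. HIST1H3D rose 2.84-fold, with a log2 fold change of 1.51 ± 0.24 (SE) and an adjusted p of 0.0236 in the edgeR test. The edgeR adjusted p was 0.0899, 0.0603 and 0.0950 when MRT199665 replicates 1, 2 and 3 were left out in turn, and 0.0980 when vehicle replicate 3 was, which ended the call. Its RefSeq interval overlaps HIST1H2AD, which had no count.

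The sole other tested H3 gene, HIST1H3A, had a log2 fold change of 0.47 ± 0.42 (SE) with overlapping groups. The summed H3 level was 14.4, 11.7 and 11.3 CPM with MRT199665, against 6.46, 7.38 and 6.01 CPM with vehicle, and without HIST1H3D the log2 ratio of the sum was -0.03. Untested H3 members with 10 or more counts in a library were HIST1H3C (14 counts over the MRT199665 libraries, 23 over the vehicle libraries), HIST1H3H (20 and 18 counts) and HIST1H3I (15 and 20 counts). The remaining untested H3 members had at most 2 counts in any library.

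Linker histone genes lay on the lower side. HIST1H1B (H1-5 in RefSeq) stood at 9.21, 9.80 and 6.87 CPM in MRT199665 replicates 1, 2 and 3, against 16.4, 15.1 and 16.7 CPM in vehicle replicates 1, 2 and 3. HIST1H1E (H1-4) stood at 19.9, 17.2 and 15.5 CPM in MRT199665 replicates 1, 2 and 3, against 27.3, 31.1 and 38.0 CPM in vehicle replicates 1, 2 and 3. In both genes all MRT199665 libraries were below all vehicle libraries. HIST1H1B fell 1.88-fold (log2 fold change -0.91 ± 0.17, SE, edgeR adjusted p = 0.0454), and HIST1H1E fell 1.83-fold (-0.87 ± 0.17, SE, edgeR adjusted p = 0.0491).

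Both calls lay close to the threshold. That of HIST1H1B ended without any 1 of the 6 libraries, with adjusted p = 0.121, 0.0603 and 0.189 without MRT199665 replicates 1, 2 and 3, and 0.0769, 0.0789 and 0.223 without vehicle replicates 1, 2 and 3. That of HIST1H1E held only without vehicle replicate 1, with adjusted p = 0.0899, 0.115 and 0.234 without MRT199665 replicates 1, 2 and 3, and 0.0957 and 0.236 without vehicle replicates 2 and 3. HIST1H1D had a similar log2 fold change of -1.04 ± 0.26 (SE) at a lower level, 2.75 ± 0.517 CPM in MRT199665 libraries and 5.57 ± 1.37 CPM in vehicle libraries (SD, n = 3 each). Its groups did not overlap, and it did not pass the edgeR test (adjusted p = 0.109). HIST1H1A held 12 counts in all.

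HIST1H1C, the H1 gene with the most counts and known for a polyadenylated form, stood at 95.3, 123 and 79.0 CPM in MRT199665 replicates 1, 2 and 3, against 118, 110 and 117 CPM in vehicle replicates 1, 2 and 3. MRT199665 replicate 2 was the highest of all 6 libraries and the others of its group were the lowest, so the groups overlapped. Its log2 fold change was -0.22 ± 0.16 (SE, edgeR adjusted p = 0.572). HIST1H1C took 77.0 ± 2.67% of H1 counts with MRT199665 and 68.2 ± 2.79% with vehicle (SD, n = 3 each), without overlap. Per count of HIST1H1C there were 0.0879 ± 0.00837 counts of HIST1H1B with MRT199665 and 0.139 ± 0.00277 with vehicle (SD, n = 3 each). The summed H1 level had a log2 ratio of -0.40, and without HIST1H1C -0.89, with no overlap in either case.

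**Figure D3:**
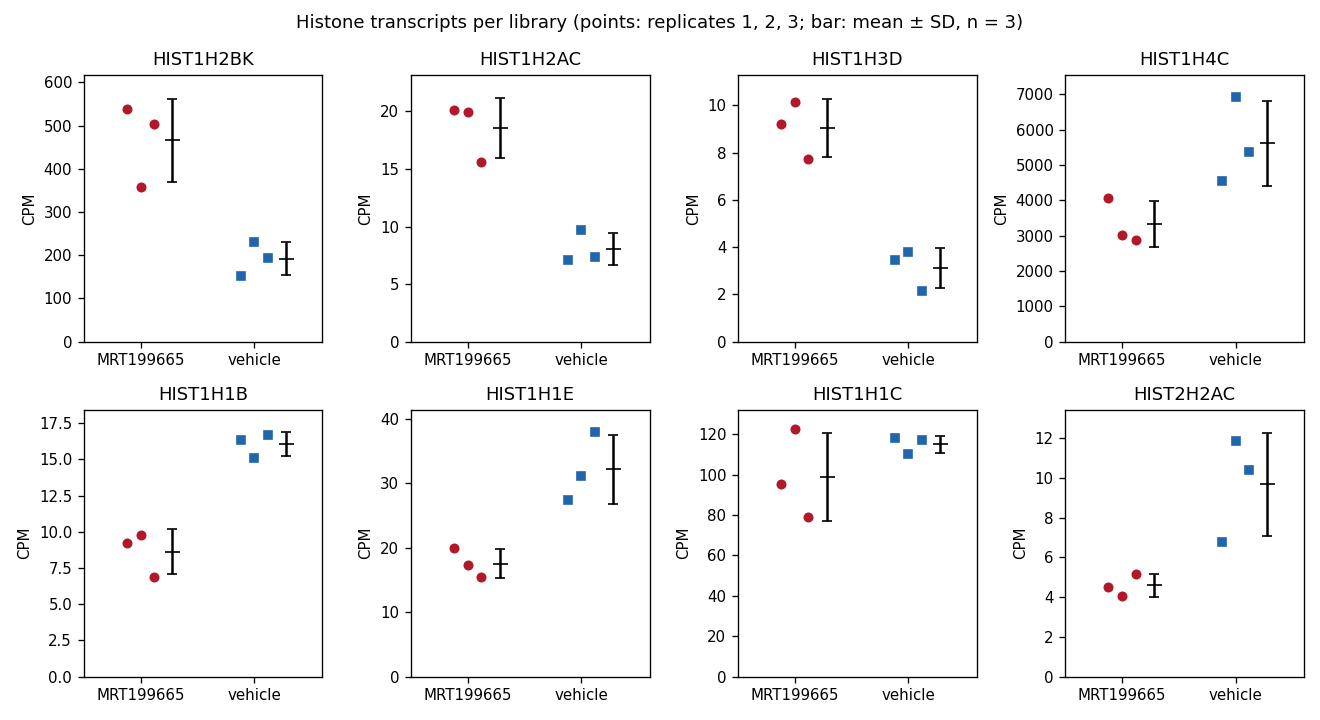
CPM of 8 members in each library, with points for replicates 1, 2 and 3 from left to right and bars for the mean ± SD (n = 3), MRT199665 left of vehicle in each panel. HIST1H2BK, HIST1H2AC and HIST1H3D are higher with MRT199665 in every library, HIST1H4C, HIST1H1B, HIST1H1E and HIST2H2AC are lower in every library, and HIST1H1C overlaps.

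The sum over all members was set by a pair of genes. It was 4881, 3660 and 3608 CPM in MRT199665 replicates 1, 2 and 3, against 4975, 7437 and 5858 CPM in vehicle replicates 1, 2 and 3, a log2 ratio of -0.59. Without HIST1H4C the sum was 807, 637 and 723 CPM with MRT199665, against 424, 526 and 485 CPM with vehicle, a log2 ratio of 0.59 in the opposite direction. Without HIST1H2BK as well, the sum was 256 ± 32.7 CPM in MRT199665 libraries and 286 ± 13.0 CPM in vehicle libraries (SD, n = 3 each), with overlapping groups. Counts of HIST1H2BK per count of HIST1H4C were 0.132, 0.118 and 0.175 with MRT199665, against 0.0335, 0.0333 and 0.0361 with vehicle. Those ratios were close to each other in the vehicle group and higher in every MRT199665 library.

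**Figure D4:**
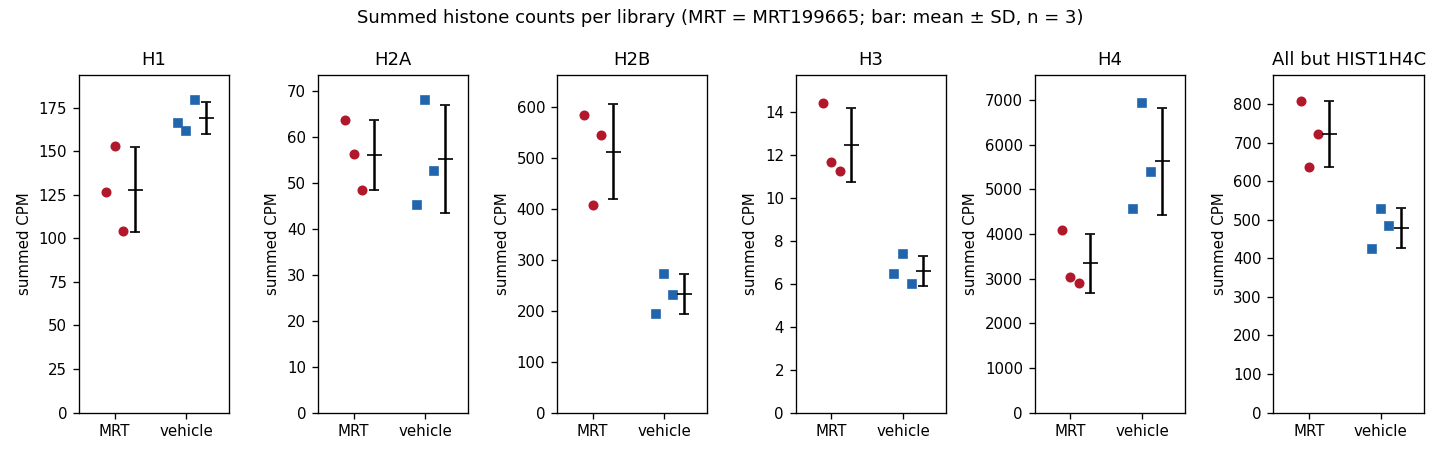
Summed CPM of all members of each class, and of all members but HIST1H4C, per library (points, replicates 1 to 3 from left to right) with the mean ± SD (n = 3), MRT199665 left of vehicle. The H2B, H3 and all-but-HIST1H4C sums are higher with MRT199665 in every library, the H1 and H4 sums are lower, and the H2A sums overlap.

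Members known from general knowledge to give polyadenylated transcripts were listed apart, in a list made with earlier results of these data known. Of 12 such genes 8 were tested, 2 were called higher (HIST1H2BK and HIST1H2AC), where 0.850% of all tested genes were, and none lower. Of the 8, 2 had a log2 fold change below 0, against 49.1% of all tested genes, and the median was 0.35. Their summed level was 541 to 691 CPM with MRT199665 and 309 to 381 CPM with vehicle. HIST1H2BK alone had 357 to 537 CPM with MRT199665 and 153 to 230 CPM with vehicle. By transcript model, 9 of the 25 members whose model runs more than 100 bases past a stem-loop were tested, and 6 of these 9 were above 0, with 1 called higher and 0 lower. Of the other 50 members 19 were tested and 6 were above 0, with 2 called higher and 2 lower. These 50 include the 40 members whose models hold no stem-loop, HIST1H2BK among them. They therefore do not stand for genes without longer transcripts. Over all tested genes 0.850% were called higher and 0.398% lower.

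Histone H2A and H2B genes often lie head to head and share the sequence between their starts. In the annotation 13 such pairs had starts less than 1000 bases apart, and both genes were tested in 4. Partners had different values in HIST1H2BC and HIST1H2AC, with log2 fold changes of -0.29 and 1.20, and in HIST2H2BE and HIST2H2AC, with 0.60 and -1.06. HIST1H2BJ and HIST1H2AG had 0.26 and 0.35, and HIST1H2AJ and HIST1H2BM had -0.81 and -0.07. The partner of HIST1H2BK, HIST1H2AH, held 23 counts over all libraries. Per library, 5.93, 3.81 and 4.31 counts of HIST1H2AC were found per count of HIST1H2BC with MRT199665, against 1.81, 1.85 and 1.36 with vehicle.

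Promoters of the 5 called members are printed because these genes moved in opposite directions. The sequences are the 250 bases before the RefSeq start on the coding strand, 5′ to 3′, of build GRCh38.p14. The start is the base after the last letter and counts as 0. Capitals mark matches on either strand to 4 motifs. These are the CCAAT box (reverse strand ATTGG), the TATA box with letters TATAAA (reverse strand TTTATA), the octamer ATGCAAAT (reverse strand ATTTGCAT) and the H1 box with letters AAACACA (reverse strand TGTGTTT). RefSeq has 2 start windows for HIST1H2BK and for HIST1H3D, and the window nearest the gene's outer end is shown.
HIST1H2BK, chr6:27146856-27147105, minus strand: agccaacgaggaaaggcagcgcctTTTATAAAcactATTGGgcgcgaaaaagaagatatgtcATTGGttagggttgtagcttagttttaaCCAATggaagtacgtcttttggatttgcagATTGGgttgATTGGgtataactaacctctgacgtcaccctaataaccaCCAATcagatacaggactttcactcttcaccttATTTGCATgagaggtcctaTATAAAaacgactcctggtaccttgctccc
HIST1H2AC, chr6:26123922-26124171, plus strand: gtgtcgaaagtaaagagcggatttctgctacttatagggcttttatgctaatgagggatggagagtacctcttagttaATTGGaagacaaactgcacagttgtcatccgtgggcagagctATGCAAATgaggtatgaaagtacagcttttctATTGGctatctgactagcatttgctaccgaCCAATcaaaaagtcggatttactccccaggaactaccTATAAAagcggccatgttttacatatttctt
HIST1H3D, chr6:26197287-26197536, minus strand: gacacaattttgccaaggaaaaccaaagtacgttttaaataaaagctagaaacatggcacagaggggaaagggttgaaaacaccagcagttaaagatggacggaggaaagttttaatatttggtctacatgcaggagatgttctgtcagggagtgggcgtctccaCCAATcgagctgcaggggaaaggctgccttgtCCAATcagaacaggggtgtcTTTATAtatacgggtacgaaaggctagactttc
HIST1H1B, chr6:27867589-27867838, minus strand: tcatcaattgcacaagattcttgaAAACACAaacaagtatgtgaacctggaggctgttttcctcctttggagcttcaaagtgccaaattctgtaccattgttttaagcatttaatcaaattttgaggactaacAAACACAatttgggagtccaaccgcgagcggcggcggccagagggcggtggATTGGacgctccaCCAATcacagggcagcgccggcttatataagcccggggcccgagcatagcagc
HIST1H1E, chr6:26156079-26156328, plus strand: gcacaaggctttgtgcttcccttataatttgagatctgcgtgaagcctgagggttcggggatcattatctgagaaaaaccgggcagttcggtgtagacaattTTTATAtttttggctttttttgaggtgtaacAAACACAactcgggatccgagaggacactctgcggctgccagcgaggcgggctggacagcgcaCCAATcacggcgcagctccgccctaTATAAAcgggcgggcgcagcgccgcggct

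The called H1 promoters shared an arrangement. The H1 box lay at -117 to -111 in both HIST1H1B and HIST1H1E, and a CCAAT box began at -53 in HIST1H1B and at -54 in HIST1H1E. HIST1H1B had a further H1 box at -226. The called core members had no H1 box, and HIST1H2BK and HIST1H2AC had an octamer. In HIST1H2BK the TATAAA matches on both strands overlap at its upstream end, where the letters read TTTATAAA.

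**Figure D5:**
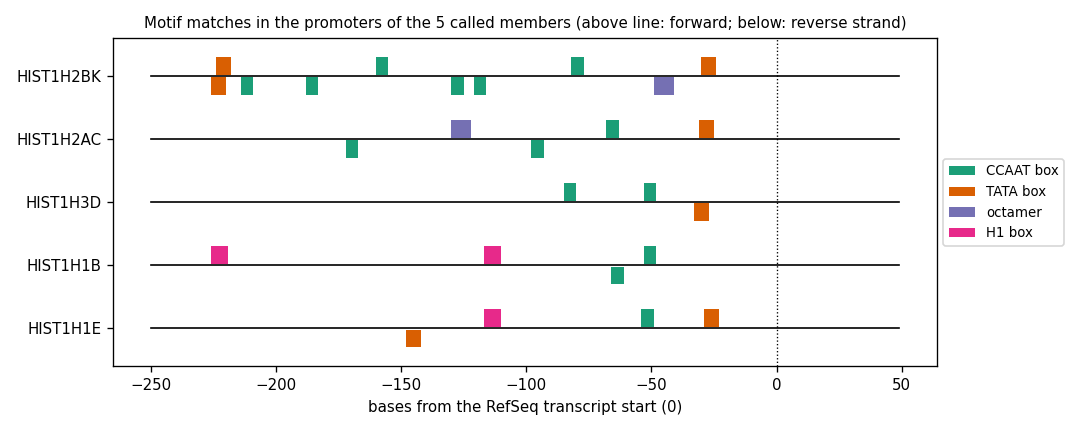
Motif matches in the promoters of the 5 called members, as distance in bases from the RefSeq start, with forward matches above each line and reverse matches below it. The H1 box lies at the same distance, -117 to -111, in HIST1H1B and HIST1H1E and is absent from the other 3 lines.

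Over all members, 60 of those matched to RefSeq had a promoter among the 27305 genes of that table, here searched over 250 bases before to 50 after the start. CCAAT was found in 50 of the 60, against 39.7% of all genes, and in H4 in 3 of 13. TATAAA was found in 41 of the 60, against 14.0% of all genes. The octamer was found in 21 of the 60, against 2.19% of all genes, of which 11 were among 16 H2A members, 9 among 13 H2B members and 0 among 6 H1 members. AAACACA was found in all 6 H1 members and in 9 of the 60, against 6.94% of all genes. Of the tested members 5 had the H1 box and none of these had a log2 fold change above 0, while 12 of the 19 without it did. The 13 tested members with an octamer had a median log2 fold change of 0.13, and the 11 without it of -0.22. For TATAAA the medians were 0.03 in 18 members with it and -0.03 in 6 without it, and for CCAAT they were -0.07 in 21 members with it and 0.00 in 3 without it. These splits cover only the 24 tested members that have a promoter in the table. All 12 of the 28 tested members with a log2 fold change above 0 are among these 24. The tested members left out were thus all below 0, HIST1H2BC (-0.29) and HIST1H2BF (-0.68) among them, which tilts the splits upward. The splits also follow class, since all 4 tested H1 members carry the H1 box and none the octamer. A match is a description of these letters and was not measured as a bound site.

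Genes that make histone mRNA 3′ ends did not pass the test. SLBP, the stem-loop binding protein, stood at 19.0, 29.2 and 17.0 CPM in MRT199665 replicates 1, 2 and 3, against 18.5, 17.2 and 20.5 CPM in vehicle replicates 1, 2 and 3. The groups overlapped, with a log2 fold change of 0.19 ± 0.21 (SE). NPAT, the coactivator of histone transcription, stood at 11.7 ± 2.23 CPM in MRT199665 libraries and 10.6 ± 3.22 CPM in vehicle libraries (SD, n = 3 each), with a log2 fold change of 0.13 ± 0.25 (SE). Of 53 genes of histone pre-mRNA processing, U7 components, cleavage and polyadenylation factors and the exosome, 52 were tested and 0 were called by edgeR, DESeq2 or limma-voom. Their median log2 fold change was 0.03. An unadjusted p under 0.05 was found for 5, against 14.7% of all tested genes. Of these 5, 2 were higher (7.64% of all) and 3 were lower (7.11% of all). The lowest p values were those of NUDT21, a cleavage factor subunit that guides the choice of poly(A) site, with a log2 fold change of -0.42 ± 0.13 (SE), of PCF11, a termination and cleavage factor, with 0.37 ± 0.11 (SE), and of SRRT, a partner of the cap-binding complex, with 0.37 ± 0.12 (SE). Their edgeR adjusted p values were 0.170, 0.179 and 0.180.

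Histone variants listed as independent of replication, H2AFX among them, served as a comparison. Of 21 variant genes 9 were tested and 9 were at 0 in all libraries. Of the tested ones 0 were called by edgeR, DESeq2 or limma-voom, and 1 had an unadjusted p under 0.05, against 14.7% of all tested genes. That gene was H2AFY, which encodes macroH2A1, at 485 ± 16.1 CPM in MRT199665 libraries and 372 ± 44.0 CPM in vehicle libraries (SD, n = 3 each), with a log2 fold change of 0.38 ± 0.12 (SE, edgeR adjusted p = 0.199). H2AFJ had a log2 fold change of -0.40 ± 0.20 and H2AFV of -0.11 ± 0.19 (SE), both with overlapping groups. The median over the 9 tested variants was 0.04.

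Chaperones and modifiers of newly made histones gave no call either. All 31 were tested and 0 were called by edgeR, DESeq2 or limma-voom, with a median log2 fold change of 0.02. An unadjusted p under 0.05 was found for 1, against 14.7% of all tested genes. HJURP, the chaperone of the centromeric H3 variant, had a log2 fold change of -0.30 ± 0.12 (SE). NAP1L1, a chaperone of H2A and H2B, had 0.23 ± 0.11 and DNAJC9, an H3 and H4 chaperone, 0.66 ± 0.32 (SE). None of these 3 passed the edgeR test (adjusted p = 0.302, 0.384 and 0.392).

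Genes of S phase and DNA replication lay mostly below 0. Of 48 tested genes 35 had a log2 fold change below 0, against 49.1% of all tested genes, and the median was -0.16. None was called by edgeR or limma-voom and 1 by DESeq2, where 2.87% of all genes given an adjusted p were called. An unadjusted p under 0.05 was found for 12, against 14.7% of all tested genes. Of these 12, 11 were lower (7.11% of all) and 1 was higher (7.64% of all). CDT1, which licenses replication origins, stood at 267 ± 18.3 CPM in MRT199665 libraries and 374 ± 49.7 CPM in vehicle libraries (SD, n = 3 each), with a log2 fold change of -0.48 ± 0.13 (SE, edgeR adjusted p = 0.140). RFC3, a subunit of the clamp loader, had a log2 fold change of -0.45 ± 0.14 (SE). E2F2, a transcription factor of the G1 to S transition, lay on the other side with 0.61 ± 0.17 (SE). The summed level of the 48 genes was 3116 to 3362 CPM with MRT199665 against 3732 to 3840 CPM with vehicle, without overlap, and its part in the histone values was not tested.

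Coding sequences of histone genes within a class are close copies, which can limit how firmly a read inside them is given to a gene. Identity outside the coding sequences, where reads from 3′ ends may fall, was not measured. Over coding sequences of equal length, the median identity between pairs of members was 85.2% in H2A, 89.8% in H2B, 85.4% in H3 and 83.7% in H4. Coding sequences were identical within 4 pairs, HIST2H2AA3 and HIST2H2AA4, HIST2H3A and HIST2H3C, HIST2H4A and HIST2H4B, and HIST1H4J and HIST1H4K. In the first 3 of these pairs no gene had more than 2 counts in any library. No source used here says how reads that match several genes were counted, or on which strand.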

How the data were processed

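The data were gene counts of 6 OCI-AML2 libraries (100 nM MRT199665 or vehicle, 48 h, 3 libraries each), grouped by the labels. The submitters' processing notes name the build hg19 and the tools DESeq2, HTSeq 0.6.1 and STAR 2.4, per the labels without their settings. Annotation, strand setting and the treatment of reads with several matches are not given in those sources. The table deposited by the authors holds whole-number counts per gene symbol, not normalized. Members and gene lists were chosen with earlier results of these data known.

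The test was edgeR 4.0.16 (glmQLFit, glmQLFTest, TMM scaling, group as the only term) in R 4.3.3 on all genes past filterByExpr (minimum count 10, minimum total 15), two-sided, with Benjamini-Hochberg adjustment over the 13053 genes tested and calls under 0.05. It was checked on simulated data. The SE is the log2 fold change, as a size, over the root of the F statistic. CPM used TMM-scaled totals. Class sums and shares had no test, and shares have Wilson 95% intervals for counting error only. Ratios between members had no test either, and their pairs were picked by hand, outside the plan. Depth was 5871097 to 14308650 counts.

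Members named were all called ones and, per class, the 4 tested members with the greatest mean CPM and the one with the lowest p. From each list, called genes and the 3 with the lowest p were named, beside SLBP and NPAT. Untested members with a count of at least 10 in a library were given with their counts. Other members named for a value of 0, a shared sequence or a head-to-head partner were chosen after their values were seen, as was HIST1H1A.

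Stem-loops, coding sequences and head-to-head pairs were read from GENCODE release 29 and promoters from RefSeq (GRCh38.p14), a later build than the authors' hg19, for 75 and 69 members matched by name. Alternatives were other scalings and filters, DESeq2 1.42.0, limma-voom (limma 3.58.1), the replicate block, an adjusted p under 0.10 and leaving out each library. A fit without MRT199665 replicate 2 and vehicle replicate 2, which stood at the ends of the leading principal component, was added after seeing the data. The summed level of the markers of other cell types is not reported here.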

Additional observations from a re-analysis of the deposited data

How the results depend on the processing

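Direction was kept by the 5 called members under all 16 alternatives tried for each of them, and the number of members called varied. Against 3 higher and 2 lower members, the lower count was 1 with upper quartile scaling, with library totals and with limma-voom, where HIST1H1E was not called, 4 with DESeq2, and 6 without a low-count filter. Leaving out each library gave 0 to 3 higher and 0 to 2 lower members. Without MRT199665 replicate 2 and vehicle replicate 2 together, 3 higher and 0 lower members were called. S phase genes called were 1 with DESeq2 (2.87% of all genes) and 3 without a low-count filter (2.28% of all genes), against 0. The cause of these changes was not tested.

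Libraries with the same replicate number did not resemble each other most. Deviations of same-numbered libraries correlated at -0.547, -0.467 and 0.0182, and no library correlated best with its own number. Each deviation is from the mean of 3 libraries, so these correlations depend on one another and cannot exclude pairing. With the replicate block 0 members were called higher and 0 lower, and 12 genes of the whole table were called.

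Summed levels turned on single genes. The log2 ratio of all members was 0.59 without HIST1H4C, against -0.59. It was -0.89 for H1 without HIST1H1C, 0.22 for H2B without HIST1H2BK, -0.030 for H3 without HIST1H3D, 1.25 for H3 over members past the filter, and -0.23 for H4 without HIST1H4C. The median log2 fold change of tested members was 0.03 without vehicle replicate 2 and 0.06 without both replicates 2.

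Of the 18 members named by the rule, 4 that were not called changed sign under an alternative. HIST1H4H was at -0.014 with library totals, -0.012 without a low-count filter, -0.015 with DESeq2 and -0.039 with the replicate block. When libraries were left out, values lay between -0.23 and 0.21 for HIST1H4H, -0.055 and 0.78 for HIST1H3A, -0.11 and 0.39 for HIST1H4E, and -0.79 and 0.31 for HIST1H4J, counting the fit without both replicates 2.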
